A study of Saccharomyces cerevisiae with 4 samples.

Results

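Budding yeast makes its own amino acids, and 43 genes for this synthesis outside the branched-chain pathways were examined here, out of 6697 genes in the table. They were chosen by name: 6 genes for arginine, 7 for histidine, 7 for lysine, 5 for the tryptophan branch, 6 for chorismate and the other aromatic amino acids, 5 for homoserine and threonine, 4 for serine, the pair SNZ1 and SNO1 for vitamin B6, and GCN4, the gene for the activator that many of them share. All 43 were found once each in the table, and all 43 passed the filter on low values (a mean of at least 1 normalized count over the libraries). RNA was sequenced from 2 libraries of a Saccharomyces cerevisiae strain in which Swd2 is tagged with 9 Myc epitopes at the N-terminal end (9Myc-Swd2) and from 2 libraries of wild type (WT), which the series' design text calls isogenic. Both groups were grown in the rich glucose medium YPD at 30 °C to an OD600 of 1.0. Swd2 is a subunit of the Set1 histone methyltransferase complex COMPASS and of the cleavage and polyadenylation factor. The labels do not state the promoter that drives the tagged gene, the strain background, its auxotrophic alleles or the number of clones. Nor do they tell whether the 2 libraries per strain were grown as separate cultures, and p-values therefore measure only the spread between these libraries, which may be technical.

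When cells run short of an amino acid, the kinase Gcn2 slows general translation, and short reading frames in the leader of the GCN4 mRNA let more Gcn4 protein be made. Gcn4 then binds sites of the type TGACTCA upstream of genes of nearly every amino acid pathway, a response known as general amino acid control. Because Gcn4 is regulated mainly in translation and by degradation, the level of its mRNA does not give the level of the protein. YPD is a rich medium that contains amino acids.

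The libraries held 7849193 and 8316221 reads in 9Myc-Swd2 and 8388090 and 8327878 in WT. The levels given are read counts as normalized by the authors. Each log2 fold change compares 9Myc-Swd2 with WT on the log2(value + 1) scale and carries its standard error (SE), from limma-trend fitted to the 6503 genes tested. Levels are relative to the rest of a library, so less of one mRNA and more of the others cannot be told apart. A gene is said to have risen or fallen where the Benjamini-Hochberg adjusted p over all these genes was under 0.05. Of all genes tested, 43.7% passed this threshold, 22.3% being higher and 21.4% lower in 9Myc-Swd2. Chromosome XI stood apart: the median of its 342 tested genes was 0.90 on the log2 scale, and 90.6% of them rose. SWD2 itself lies there, at 1025 ± 78.9 normalized counts in 9Myc-Swd2 and 343 ± 11.5 in WT (SD, n = 2 each), and TRP3 is the only member there. Off that chromosome, LEU2 also set the strains called isogenic apart, at 2219 ± 79.3 in 9Myc-Swd2 and 26.9 ± 6.37 in WT. The parts of the tag, of LEU2 and of chromosome XI in the changes of the members were not tested.

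Amino acid synthesis genes moved in both directions in 9Myc-Swd2. Of the 43 members, 11 rose, 11 fell and 21 did not pass, so that 51.2% were called, against 43.7% of all genes tested. Of the members 25.6% rose, against 22.3% of all genes, and 25.6% fell, against 21.4% of all genes. The median over the members was -0.051 on the log2 scale, and that over all tested genes was 0.0011. By the authors' deposited table, 10 members were higher and 10 lower at an adjusted p under 0.05, where 33.3% of its genes passed. The changes were small in most members: SNZ1 and TRP3 were the members that at least doubled. The largest fall among the called members, that of LYS9, was -0.67 on the log2 scale. LYS2 was at -0.88, on 18 reads in all, and did not pass. At least 2-fold rises were called in 2.8% of all genes, and at least 2-fold falls in 0.8% of them. The split of rises and falls moved with the scaling: quantile normalization gave 9 rises and 15 falls among the members (37.5% of calls higher, against 50% without it). Over the whole table, scaling to total counts gave 1185 genes higher and 1721 lower (40.8% of calls higher), against 1448 and 1393 (51% higher). Off chromosome XI, 10 of 42 members rose and 11 fell, while 18.5% of all genes there rose and 22.6% fell. Without WT replicate 2, 780 genes of the whole table were lower, and limma without a trend called 6 falls among the members.

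**Figure D1:**
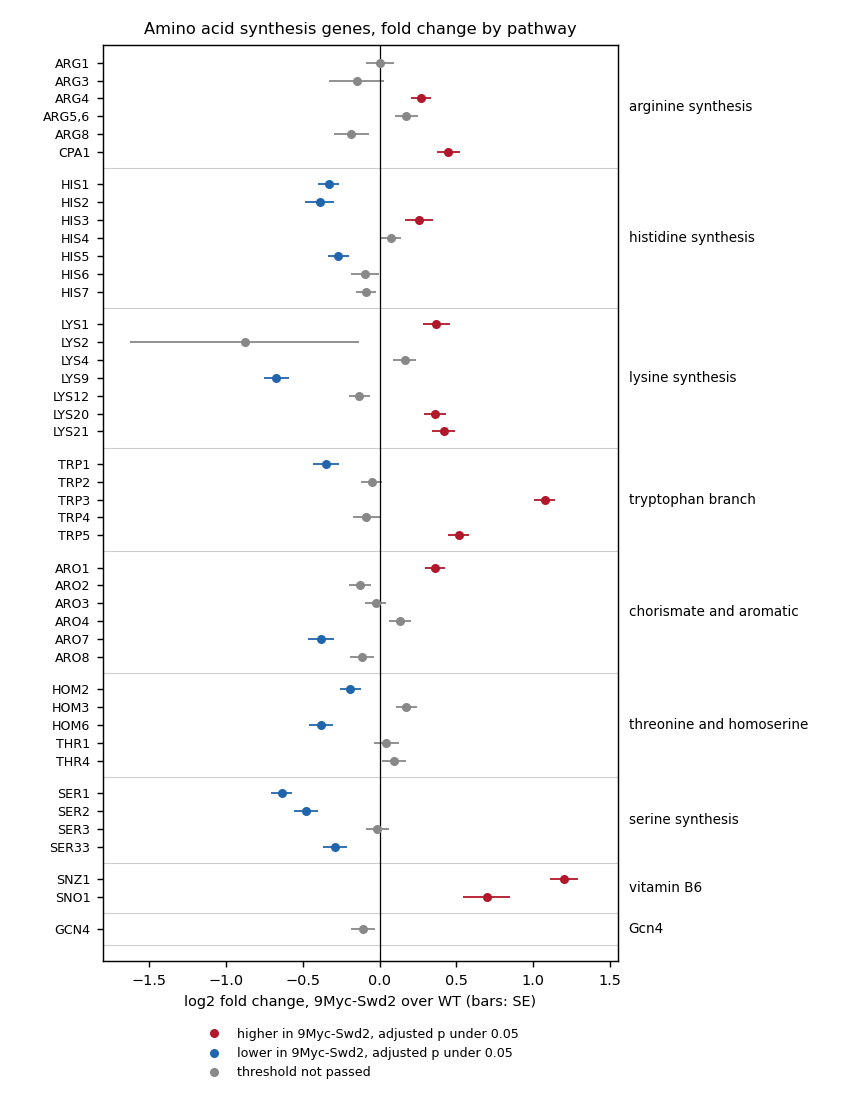
Log2 fold changes of 9Myc-Swd2 over WT with their SE for the 43 members, by pathway, from limma-trend on 2 libraries a group. Red points rose and blue points fell at an adjusted p under 0.05. Serine genes lie at or below 0, SNZ1 and SNO1 lie above it, and the other pathways with more than 1 gene hold members on both sides; the wide bar of LYS2 rests on 18 reads in all.

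Under the authors' scaling, the summed level of the members was nearly the same in the libraries. It came to 65565 and 64717 normalized counts in the 9Myc-Swd2 libraries and to 65142 and 65768 in the WT libraries, and the mean of the 9Myc-Swd2 sums was lower by 0.480%. Serine genes summed to 5042 and 5239 normalized counts in the 9Myc-Swd2 libraries and to 7329 and 6801 in the WT libraries, which is 27.2% lower in 9Myc-Swd2, and histidine genes were lower by 6.78%. Genes of the tryptophan branch summed to 7785 and 7639 normalized counts in the 9Myc-Swd2 libraries and to 5743 and 5779 in the WT libraries. This is 33.9% higher in 9Myc-Swd2, with TRP3 and TRP5 contributing the increase. TRP3, which lies on chromosome XI, averaged 2595 in 9Myc-Swd2 and 1232 in WT, and TRP5 averaged 2652 and 1855. Arginine genes were higher by 16.4%, lysine genes by 8.66% and the vitamin B6 pair by 114%, and homoserine and threonine genes were lower by 6.45%. Chorismate and aromatic genes summed to 13634 and 12809 normalized counts in the 9Myc-Swd2 libraries and to 12784 and 13354 in the WT libraries, and the groups overlapped (1.17% higher in 9Myc-Swd2). These sums give most weight to the most abundant mRNAs and carry no test. They also depend on the scaling, and were made with that of the authors only. Scaling to total counts moved the median of all genes by -0.0579 on the log2 scale.

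In 31 of the 43 members the 2 libraries of 9Myc-Swd2 lay wholly above (15) or wholly below (16) both WT libraries, which is 72.1% of the members. Of all genes tested, 71.6% had such groups, 36% above and 35.6% below. All 22 called members were among them. The spread within a group was small: the median coefficient of variation over the members other than LYS2 was 4.19% between the 9Myc-Swd2 libraries and 2.75% between the WT libraries.

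GCN4 itself (YEL009C, chrV:138918-139763, minus strand) did not pass. Its level was 4518 and 4239 normalized counts in the 9Myc-Swd2 libraries and 4445 and 5004 in the WT libraries, and the ranges of the groups overlapped. The 95% interval of its log2 fold change (-0.11 ± 0.076, limma-trend adjusted p = 0.267) was -0.27 to 0.051. Per kilobase of coding sequence it was the most abundant member, at 5176 normalized counts in 9Myc-Swd2 and 5584 in WT. Of the 12 measured genes for the control of Gcn4 and its partners, 2 rose and 3 fell, against 22.3% and 21.4% of all genes. PCL5, the cyclin that directs phosphorylation and degradation of Gcn4 and is itself a Gcn4 target, fell to 1420.3 ± 45.5, against 2251 ± 235 in WT (SD, n = 2 each, log2 fold change -0.66 ± 0.076, limma-trend adjusted p = 1.73e-06). GCD2 and GCD7, subunits of the nucleotide exchange factor eIF2B, fell by 0.34 and 0.21 on the log2 scale. BAS1, an activator of histidine and purine genes, and GCN3, also an eIF2B subunit, rose by 1.11 and 0.78. Both of these lie on chromosome XI, where most genes were higher, and the part of the chromosome in their rise was not tested. GCN2, the kinase gene, was at 1319 ± 17.6 in 9Myc-Swd2 and 1281 ± 53.8 in WT and did not pass (log2 fold change 0.043 ± 0.069).

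The Gcn4-type motif was looked for in the 500 bases before each start codon, since Gcn4 binds such sites. The motif was TGACTCA on either strand, so that TGAGTCA is the same site read from the other strand. It was found upstream of 21 of the 43 members (48.8%) and of 240 of 5930 tested protein-coding genes with a full window (4.0%). By pathway it was found at all 6 arginine genes, 4 of 7 histidine genes, 2 of 7 lysine genes, 2 of 5 tryptophan genes, 2 of 6 chorismate and aromatic genes, 3 of 5 homoserine and threonine genes, both vitamin B6 genes, and 0 of 4 serine genes. Of the 21 members with the motif, 7 rose, 3 fell and 11 did not pass, and of the 22 without it, 4 rose, 8 fell and 10 did not pass. Of the 240 tested genes with the motif, 63 rose (26.2%) and 59 fell (24.6%), against 23.7% and 22.7% of the genes without it. These counts carry no test. The 7 members that rose include SNZ1 and SNO1, which share the same 2 matches. They also include TRP3, which lies on chromosome XI, where most genes rose. A match is a description of the sequence and not evidence of binding, and the window can reach into the neighbouring gene. Only exact matches to the 7 letters were counted, so a gene without a match, such as HIS3, is not shown to lack a Gcn4 site. The sites of 8 called members and of HIS4, a classical target that did not pass, are printed because members with the same 7 letters moved in opposite directions. Each is read 5′ to 3′ toward the gene with 10 bases on either side, from the RefSeq R64 genome, which is the assembly that sacCer3 names, and capitals mark the motif. The 5 genes that rose come before the 3 that fell.
ARG4 (chrVIII:141565-141591, minus strand): agtagatgaaTGACTCActttttggat
CPA1 (chrXV:882405-882431, plus strand): gaagggtgttTGACTCAtcatcgcatc
LYS1 (chrIX:420970-420996, minus strand): actaagtcgaTGAGTCAaaaaagactc
TRP3 (chrXI:38260-38286, minus strand): aatggctcgtTGACTCAttctaatcta
ARO1 (chrIV:704251-704277, plus strand): gtcatgcataTGACTCAtcccgaacat
HIS1 (chrV:265953-265979, minus strand): agcttccaagTGAGTCAcctctaccgt
HIS5 (chrIX:142716-142742, plus strand): ttggatctgtTGACTCActtcaattga
HOM2 (chrIV:770163-770189, plus strand): aagcattgatTGACTCAttttcctctg
HIS4 (chrIII:68516-68542, minus strand): ccatgcacagTGACTCAcgttttttta

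**Figure D2:**
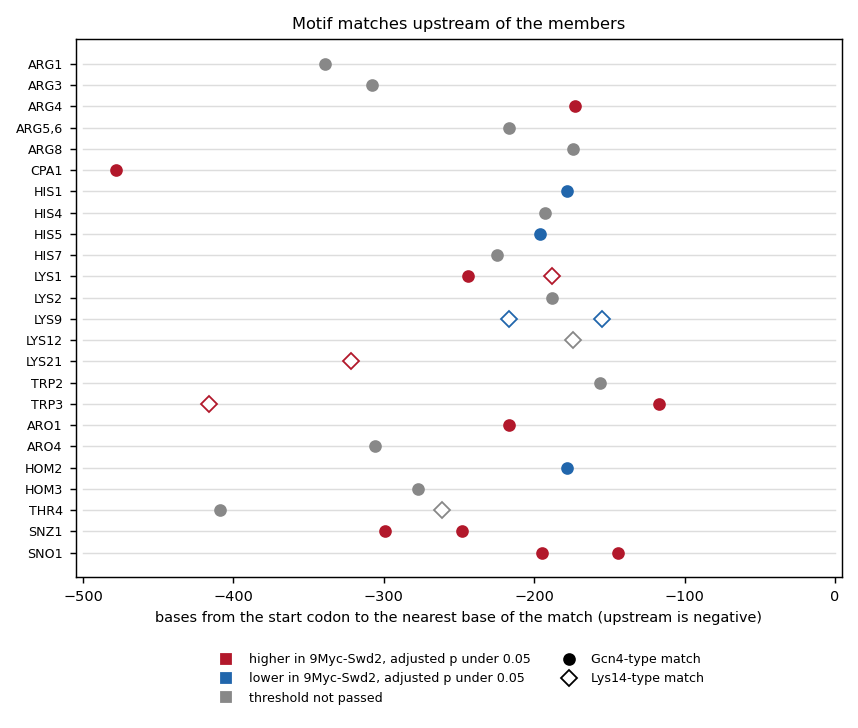
Position of each motif match in the 500 bases before the start codon (x axis, bases from the start codon to the nearest base of the match) for the 24 members with at least 1 match. Filled circles are Gcn4-type and open diamonds Lys14-type matches, in red for genes that rose, blue for genes that fell and grey for genes that did not pass. Genes with different calls have sites at like distances, with ARG4 at 173, HIS5 at 196 and HIS4 at 193 bases.

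Serine synthesis leaves glycolysis at 3-phosphoglycerate and takes 3 steps. Among its 4 genes 3 fell in 9Myc-Swd2, against 21.4% of all genes, while SER3 did not pass. SER1, the phosphoserine aminotransferase of the middle step, was at 2637 and 2683 normalized counts in the 9Myc-Swd2 libraries and at 4305 and 3978 in the WT libraries. Both 9Myc-Swd2 libraries were well below both WT libraries. SER1 fell (log2 fold change -0.64 ± 0.069, limma-trend adjusted p = 8.33e-07). SER2, the phosphatase that releases serine, was at 584 and 603 in 9Myc-Swd2 and 825 and 830.0 in WT, without overlap, and fell (log2 fold change -0.48 ± 0.076, limma-trend adjusted p = 6.77e-05). SER33 and SER3 encode a pair of 3-phosphoglycerate dehydrogenases that catalyse the entry step. SER33 was at 851 and 923 in 9Myc-Swd2 and 1144 and 1023 in WT (log2 fold change -0.29 ± 0.078, limma-trend adjusted p = 0.00627), and its call was lost without WT replicate 1 (adjusted p = 0.146), with no filter (0.0848) and with limma without a trend (0.0857), with a range of 0.00018 to 0.146 over all alternatives. SER3 was at 971 and 1030.3 in 9Myc-Swd2 and 1054 and 969 in WT, and its groups overlapped. The coding sequences of SER3 and SER33 are 82.4% identical, with a longest shared run of 56 bases, so some reads may be assigned to either. The annotated noncoding RNA SRG1, which is transcribed across the SER3 promoter and represses SER3, overlaps SER3 on the same strand, and their reads could not be told apart there. The difference between the changes of SER3 and SER33 was not tested.

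Of 10 related genes of threonine, serine and glycine use, 3 rose and 2 fell, against 22.3% and 21.4% of all genes. SHM2, the cytosolic serine hydroxymethyltransferase that turns serine into glycine and one-carbon units, fell to 4993 ± 153, against 6818 ± 130.5 in WT (log2 fold change -0.45 ± 0.071), and its mitochondrial counterpart SHM1 fell by 0.23 on the log2 scale. GCV1 and GCV2, subunits of the glycine cleavage system, rose by 0.32 and 0.66.

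SNZ1 and SNO1 rose together. They encode the synthase and glutaminase subunits of an enzyme that makes pyridoxal phosphate, the cofactor of the aminotransferases, and are known as genes induced on nutrient limitation. SNZ1 (chrXIII:458408-459301, plus strand) was at 586 and 627 normalized counts in the 9Myc-Swd2 libraries and at 258 and 269 in the WT libraries. Each 9Myc-Swd2 value was more than 2 times any WT value. The rise was the largest among the members (log2 fold change 1.20 ± 0.092, limma-trend adjusted p = 1.15e-08). SNO1 (chrXIII:457285-457959, minus strand) was at 138 and 140.1 in 9Myc-Swd2 and 82.7 and 88.4 in WT (log2 fold change 0.70 ± 0.15, limma-trend adjusted p = 0.00115). Both calls held under each alternative without a minimum fold change. The pair is read outward from a shared interval of 448 bases between the start codons. That interval holds 2 Gcn4-type matches, 299 and 248 bases upstream of SNZ1, and the same matches lie 144 and 195 bases upstream of SNO1. The stretch with both matches is printed because it lies between both genes, with 40 bases on either side and the motif in capitals.
SNZ1 (chrXIII:458063-458200, plus strand): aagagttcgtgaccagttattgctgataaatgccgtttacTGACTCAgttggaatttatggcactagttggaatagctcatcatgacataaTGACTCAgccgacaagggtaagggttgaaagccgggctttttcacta

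The paralogs of this pair did not rise. SNZ2 was at 129 ± 6.83 in 9Myc-Swd2 and 146 ± 7.20 in WT, and SNZ3 was at 109 ± 11.3 in 9Myc-Swd2 and 134 ± 7.40 in WT (SD, n = 2 each). SNO2 was at 66.3 ± 5.43 in 9Myc-Swd2 and 81.7 ± 4.01 in WT, and SNO3 fell by 0.63 on the log2 scale (limma-trend adjusted p = 0.0154). SNZ2 and SNZ3 are 99.3% identical in coding sequence, so their values are uncertain as single genes, whereas SNZ1 shares 70.7% with SNZ2 and no run of over 14 bases. Of the 6 other vitamin B6 genes, SNO3 and the pyridoxal kinase gene BUD16 (log2 fold change -0.48 ± 0.13) fell. The other 4 did not pass, and 21.4% of all genes fell.

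**Figure D3:**
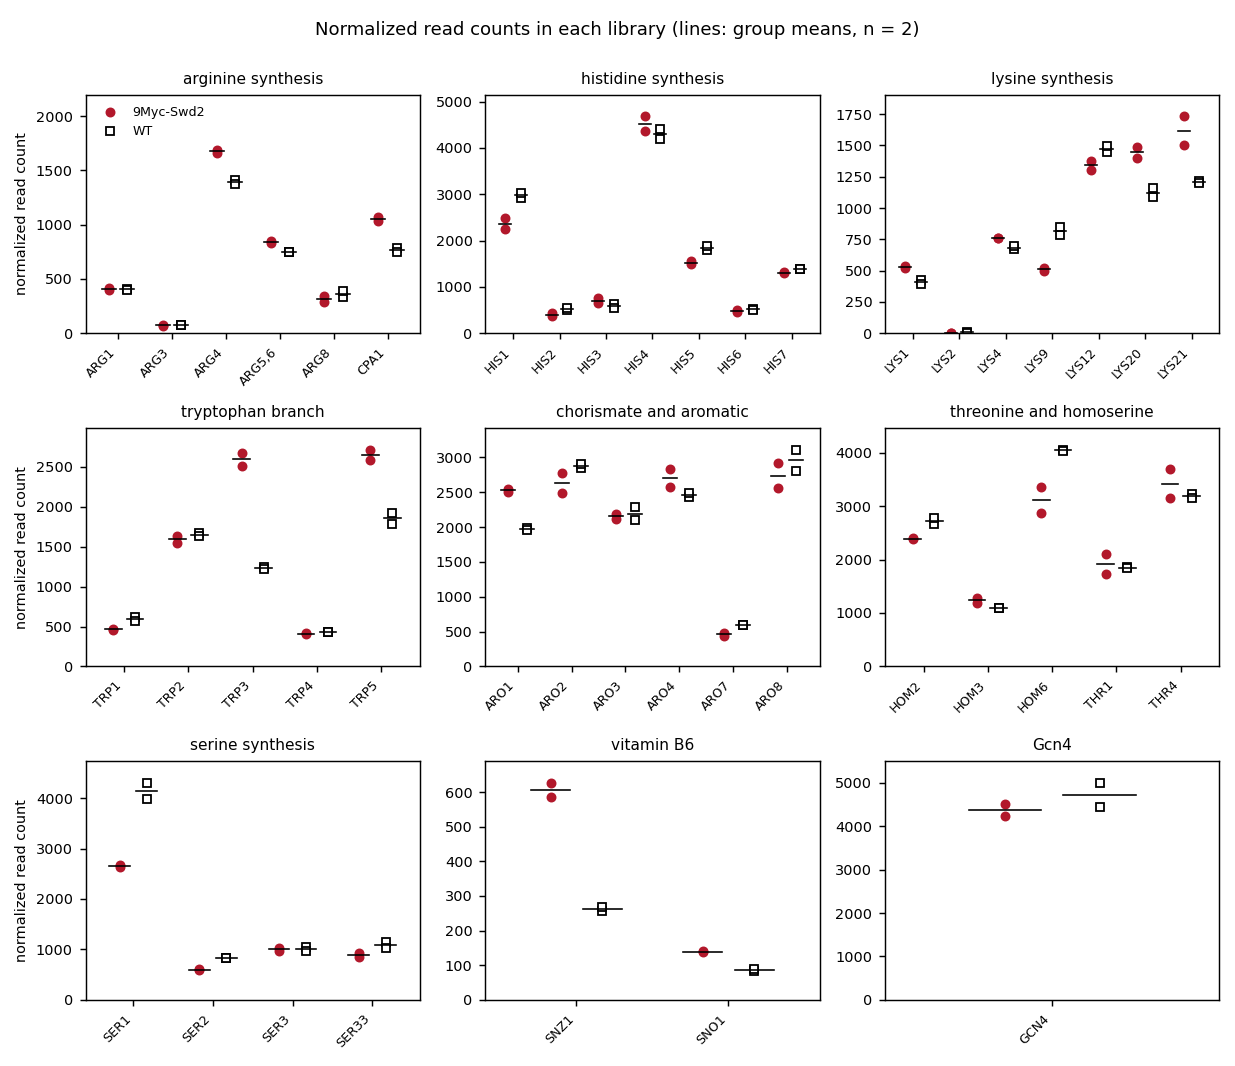
Normalized read counts of every member in each library, with 9Myc-Swd2 (filled red circles) left of WT (open squares) and a line at the mean of the 2 libraries. SER1, SER2, TRP3, TRP5, SNZ1 and SNO1 show groups that stand clear of each other, while GCN4, HIS4 and ARO3 overlap.

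Lysine is made in yeast by the aminoadipate route, and its genes moved in both directions. Of 7 genes, 3 rose, 1 fell and 3 did not pass, while 22.3% of all genes rose and 21.4% fell. LYS20 and LYS21, the homocitrate synthases of the entry step, both rose. LYS20 was at 1487 and 1401 in 9Myc-Swd2 and 1089 and 1158 in WT (log2 fold change 0.36 ± 0.071, limma-trend adjusted p = 0.000486), and LYS21 was at 1733 and 1503 in 9Myc-Swd2 and 1219 and 1199 in WT (log2 fold change 0.42 ± 0.076, limma-trend adjusted p = 0.000251). Their coding sequences are 88.1% identical with a shared run of 278 bases, so the division of reads between them is uncertain. LYS9, a saccharopine dehydrogenase of the next to last step, moved the other way. It was at 498 and 524 in 9Myc-Swd2 and 780.3 and 849 in WT, the largest fall among the called members (log2 fold change -0.67 ± 0.081, limma-trend adjusted p = 3.33e-06). LYS1, the saccharopine dehydrogenase that forms lysine in the last step, was at 522 and 540.3 in 9Myc-Swd2 and 427 and 396 in WT and rose (log2 fold change 0.37 ± 0.088, limma-trend adjusted p = 0.00248, but 0.0618 without WT replicate 2, 0.000116 to 0.0618 over all alternatives). The homoaconitase gene LYS4 (log2 fold change 0.16 ± 0.076) and the homoisocitrate dehydrogenase gene LYS12 (-0.13 ± 0.069) did not pass. LYS12 passed with a fall under quantile normalization (adjusted p = 0.0155) and total-count scaling (0.0324), with a range of 0.0155 to 0.454 over all alternatives.

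LYS2, the aminoadipate reductase gene of the middle of the pathway, was hardly read in either strain. It had 1 and 5 reads in the 9Myc-Swd2 libraries and 8 and 4 in the WT libraries, on a coding sequence of 4179 bases. Per kilobase that is 0.730 normalized counts in 9Myc-Swd2 and 1.37 in WT, while the next lowest member, ARG3, had 69.6 in 9Myc-Swd2 and 77.0 in WT. No difference in LYS2 was detectable at this depth. LYS2 is a gene often deleted or mutated in laboratory strains as a marker, and the labels give no LYS2 genotype. Among the other marker genes listed, URA3 was also low in both groups, at 12.8 and 17.1 normalized counts in 9Myc-Swd2 and 31.4 and 27.2 in WT. LEU2 was at 2276 and 2163 in 9Myc-Swd2 and 31.4 and 22.4 in WT. Of the 7 marker genes, which include the members HIS3, TRP1 and LYS2, LEU2 and HIS3 rose and TRP1, URA3, ADE2 and MET17 fell. Over all genes 22.3% rose and 21.4% fell. A count over a whole gene does not show which allele a strain carries.

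Lys14 activates lysine genes when the intermediate aminoadipate semialdehyde is present. LYS14 was at 789.6 ± 5.34 in 9Myc-Swd2 and 757 ± 7.72 in WT and did not pass. Lys14 sites fit the letters TCCNNNGGA, which read the same on both strands. These were found in the 500 bases upstream of 4 of 7 lysine genes and 6 of 43 members (14.0%), against 5.9% of the 5930 genes, and no match overlapped a Gcn4-type match. The sites of the 4 lysine genes are printed because LYS9, with 2 matches, fell, while LYS1 and LYS21 rose and LYS12 did not pass. They are shown with 10 bases on either side and the motif in capitals.
LYS9 (chrXIV:715533-715623, minus strand): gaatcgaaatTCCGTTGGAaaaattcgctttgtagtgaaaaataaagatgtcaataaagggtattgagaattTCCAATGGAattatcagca
LYS1 (chrIX:420914-420942, minus strand): atttttttttTCCAGCGGAatttggaatt
LYS21 (chrIV:227053-227081, plus strand): gagttgaaatTCCGCTGGAaatcgtcacc
LYS12 (chrIX:187796-187824, minus strand): ttcactttttTCCCGTGGAaaaatattct

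In the tryptophan branch, which leads from chorismate to tryptophan, 2 of 5 genes rose and 1 fell, against 22.3% and 21.4% of all genes. TRP3 (chrXI:36699-38153, minus strand) encodes a bifunctional protein that joins Trp2 in anthranilate synthase and also acts as indole-3-glycerol-phosphate synthase. It was at 2675 and 2514 in 9Myc-Swd2 and 1241 and 1223 in WT. Both 9Myc-Swd2 libraries stood far above both WT libraries (log2 fold change 1.07 ± 0.067, limma-trend adjusted p = 1.06e-09). The median of the chromosome XI genes tested was 0.90, and the part of the chromosome in this rise was not tested. TRP5, the tryptophan synthase of the last step, lies on chromosome VII and was at 2588 and 2717 in 9Myc-Swd2 and 1787 and 1922 in WT (log2 fold change 0.52 ± 0.069, limma-trend adjusted p = 9.69e-06). TRP2, the partner of Trp3, was at 1639.7 and 1549 in 9Myc-Swd2 and 1669.8 and 1634 in WT and did not pass (log2 fold change -0.051 ± 0.068), but passed with a fall under quantile normalization (-0.18, adjusted p = 0.0309, 0.0309 to 0.928 over all alternatives). Per kilobase, TRP3 was at 1783 normalized counts in 9Myc-Swd2 and 847 in WT, and TRP2 was at 1046 in 9Myc-Swd2 and 1084 in WT, so that their order differed between the strains. TRP4 (log2 fold change -0.086 ± 0.089) did not pass. TRP1, the phosphoribosylanthranilate isomerase, was at 469 and 457 in 9Myc-Swd2 and 617 and 564 in WT and fell (log2 fold change -0.35 ± 0.086, limma-trend adjusted p = 0.00312, but 0.082 without WT replicate 1, 0.000153 to 0.082 over all alternatives).

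Chorismate, the common precursor of the aromatic amino acids, is made by Aro1, Aro2, Aro3 and Aro4. ARO1, a pentafunctional enzyme, was at 2504 and 2553 in 9Myc-Swd2 and 1994 and 1952 in WT and rose (log2 fold change 0.36 ± 0.065, limma-trend adjusted p = 0.000269). ARO7, the chorismate mutase that draws chorismate toward phenylalanine and tyrosine, was at 477 and 443 in 9Myc-Swd2 and 599.7 and 599 in WT and fell (log2 fold change -0.38 ± 0.085, limma-trend adjusted p = 0.0014). ARO3 and ARO4, the DAHP synthases of the entry step, ARO2, the chorismate synthase, and ARO8, an aromatic aminotransferase, had log2 fold changes between -0.13 (ARO2) and 0.13 (ARO4) and did not pass. ARO4 passed without 9Myc-Swd2 replicate 2 (adjusted p = 0.0215, 0.0215 to 0.53 over all alternatives), and ARO2 and ARO8 passed with falls without 9Myc-Swd2 replicate 1 (ARO2 0.0187, 0.0187 to 0.619 over all alternatives, and ARO8 0.0178, 0.0178 to 0.876 over all alternatives). ARO2 also passed with a fall under quantile normalization (0.0414) and total-count scaling (0.0403). Of 5 further aromatic genes, ARO9, an aminotransferase of aromatic amino acid breakdown, rose to 524 ± 33.0, against 314 ± 28.1 in WT (log2 fold change 0.74 ± 0.10). The other 4 did not pass, while 22.3% of all genes rose.

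Of 6 arginine genes, CPA1 and ARG4 rose and 0 fell by limma-trend, against 22.3% and 21.4% of all genes. At an unadjusted p under 0.05 there were 0 falls, and edgeR and DESeq2 also called 0. CPA1, the small subunit of the carbamoyl phosphate synthetase dedicated to arginine, was at 1031 and 1069.6 in 9Myc-Swd2 and 787 and 752 in WT (log2 fold change 0.45 ± 0.073, limma-trend adjusted p = 8.35e-05). ARG4, the argininosuccinate lyase of the last step, was at 1662 and 1693 in 9Myc-Swd2 and 1410.4 and 1371 in WT (log2 fold change 0.27 ± 0.067, limma-trend adjusted p = 0.00326). Both genes had higher values in each 9Myc-Swd2 library than in any WT library. The call of ARG4 was lost without WT replicate 2 (adjusted p = 0.0606) and under quantile normalization (0.0837), with a range of 0.000167 to 0.0837 over all alternatives. ARG1, the argininosuccinate synthetase, was at 396 and 414 in 9Myc-Swd2 and 412 and 396 in WT (log2 fold change 0.0049 ± 0.091). ARG5,6, which encodes the acetylglutamate kinase and reductase, had 0.17 ± 0.074 (limma-trend adjusted p = 0.0647). It passed with a rise with no filter (0.0384) and with size factors without chromosome XI genes (0.0387), with a range of 0.0384 to 0.237 over all alternatives. The ornithine carbamoyltransferase gene ARG3 and the acetylornithine aminotransferase gene ARG8 had log2 fold changes of -0.15 ± 0.18 and -0.18 ± 0.11 and did not pass. ARG8 passed with a fall without 9Myc-Swd2 replicate 2 (adjusted p = 0.0181, 0.0181 to 0.757 over all alternatives).

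Other genes of arginine use were also called. Of 9 listed, 5 rose and 1 fell, against 22.3% and 21.4% of all genes. CAR1 and CAR2, the arginase and ornithine aminotransferase that break arginine down, rose to 2133 ± 85.7 and 839 ± 33.9 in 9Myc-Swd2, against 1134 ± 23.4 and 413 ± 25.6 in WT (log2 fold changes 0.91 ± 0.068 and 1.02 ± 0.084). ARG7, an ornithine acetyltransferase, rose by 0.49 on the log2 scale. YOR302W, which was chosen after its values were seen, is a reading frame of 78 bases in the leader of the CPA1 mRNA that encodes the arginine attenuator peptide (chrXV:882765-882842). It averaged 123 ± 4.65 in 9Myc-Swd2 and 52.8 ± 4.60 in WT (log2 fold change 1.21 ± 0.17, limma-trend adjusted p = 2.25e-05). The attenuator peptide is known to stall ribosomes at high arginine and to lower CPA1 translation and mRNA stability, and a difference between the changes of YOR302W and CPA1 was not tested.

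Histidine genes had 3 falls and 1 rise among 7, while 21.4% of all genes fell and 22.3% rose. HIS1, the ATP phosphoribosyltransferase of the entry step, was at 2242 and 2487 in 9Myc-Swd2 and 2927 and 3018 in WT (log2 fold change -0.33 ± 0.070, limma-trend adjusted p = 0.000995). HIS5, the histidinol-phosphate aminotransferase, was at 1482 and 1566 in 9Myc-Swd2 and 1800.1 and 1873 in WT (-0.27 ± 0.068, limma-trend adjusted p = 0.00375), and HIS2, the histidinol phosphatase, was at 368 and 431 in 9Myc-Swd2 and 503 and 543 in WT (-0.39 ± 0.10, limma-trend adjusted p = 0.00329). Without WT replicate 2 the adjusted p of HIS5 was 0.0742 (0.000153 to 0.0742 over all alternatives) and that of HIS2 was 0.0754 (7.52e-06 to 0.083 over all alternatives). With limma without a trend they were 0.0559 for HIS5 and 0.0615 for HIS2, and with no filter that of HIS2 was 0.083. HIS1 kept its call with every library left out in turn. HIS3, the imidazoleglycerol-phosphate dehydratase and a common marker gene, was at 753 and 656 in 9Myc-Swd2 and 633 and 546 in WT and rose (log2 fold change 0.26 ± 0.092, limma-trend adjusted p = 0.0312). The lower 9Myc-Swd2 value of HIS3 was close to the higher WT value. HIS3 kept its call in 8 of 17 alternatives, counting the minimum fold change. Its adjusted p was 0.128 with quantile normalization, 0.104 with total-count scaling, 0.197 with no filter and 0.119 in the authors' deposited table. With limma without a trend it was 0.17. The log2 fold change of HIS3 was 0.15 without WT replicate 2 and 0.16 without 9Myc-Swd2 replicate 1, with a range of 0.15 to 0.36 over all alternatives. HIS4, HIS6 and HIS7 had log2 fold changes of 0.072 ± 0.071, -0.10 ± 0.090 and -0.088 ± 0.067 and did not pass. HIS7 passed with a fall under quantile normalization (log2 fold change -0.20, adjusted p = 0.0269, 0.0269 to 0.544 over all alternatives).

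Homoserine is made from aspartate by Hom3, Hom2 and Hom6 and is turned into threonine by Thr1 and Thr4. HOM6, the homoserine dehydrogenase, was at 2861 and 3356 in 9Myc-Swd2 and 4057 and 4023 in WT and fell (log2 fold change -0.38 ± 0.077, limma-trend adjusted p = 0.000643). Its call was lost with no filter (adjusted p = 0.0631) and with limma without a trend (0.0559), with a range of 1.83e-09 to 0.0631 over all alternatives. HOM2, the aspartate semialdehyde dehydrogenase, was at 2394 and 2378 in 9Myc-Swd2 and 2669.7 and 2774 in WT and fell (-0.19 ± 0.066, limma-trend adjusted p = 0.0265). HOM2 kept its call in 10 of 17 alternatives, counting the minimum fold change. Its adjusted p was 0.0677 in the authors' deposited table, 0.0983 with limma without a trend and 0.0513 with size factors without chromosome XI genes. The log2 fold change of HOM2 was -0.22 without WT replicate 1 and -0.16 without WT replicate 2, with a range of -0.26 to -0.16 over all alternatives. The aspartate kinase gene HOM3 was at 1276 and 1196 in 9Myc-Swd2 and 1095 and 1093 in WT, and missed the threshold (log2 fold change 0.17 ± 0.070, limma-trend adjusted p = 0.0528). It passed with a rise without 9Myc-Swd2 replicate 2 (adjusted p = 0.0186), by edgeR (0.0496) and with size factors without chromosome XI genes (0.0306), with a range of 0.0186 to 0.235 over all alternatives. THR1, at 2098 and 1729 in 9Myc-Swd2 and 1853 and 1842 in WT, and THR4, at 3689.8 and 3145 in 9Myc-Swd2 and 3229 and 3150.1 in WT, differed more between the 9Myc-Swd2 libraries than between the groups. Without 9Myc-Swd2 replicate 2 both passed with rises (THR1 0.0422, 0.0422 to 0.903 over all alternatives, and THR4 0.0175, 0.0175 to 0.862 over all alternatives, as adjusted p), and without 9Myc-Swd2 replicate 1 their log2 fold changes were -0.10 and -0.020.

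Among the alternatives, DESeq2 on recovered reads repeated the authors' deposited comparison, so these are not separate checks. Of the 22 called members, 13 kept their call and direction in each of 16 alternatives that did not ask for a minimum fold change. They were the rises of CPA1, LYS20, LYS21, TRP3, TRP5, ARO1, SNZ1 and SNO1 and the falls of HIS1, LYS9, ARO7, SER1 and SER2, where TRP3 has no value in the alternative without chromosome XI genes. Of the 21 members that did not pass, 7 stayed uncalled with the same sign in every alternative. LYS2 is among these, but it had no adjusted p by DESeq2, in the authors' deposited table or under the stricter filter on low values. Branched-chain synthesis, with 11 genes, had 1 rise, LEU2, and 5 falls (median -0.17 on the log2 scale), against 22.3% and 21.4% of all genes. A difference between these genes and the members was not tested.

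**Figure D4:**
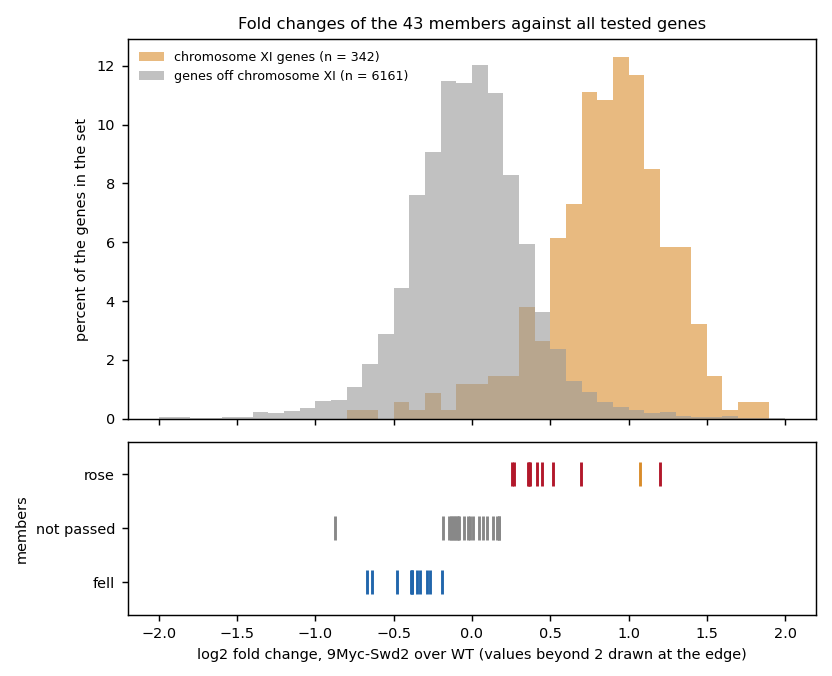
Top, share of genes by log2 fold change of 9Myc-Swd2 over WT for the 342 tested genes of chromosome XI (orange) and the 6161 others (grey). Bottom, each member as a line, by call, with TRP3 in orange. The median was 0.90 for the chromosome XI genes and -0.021 for the others. TRP3 lies at 1.07, and SNZ1, on chromosome XIII, at 1.20. The part of the chromosome in the rise of TRP3 was not tested.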

How the data were processed

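The authors deposited 1 table of 6697 genes with a normalized signal for each library. Within a library, 100% of the deposited signal values are whole numbers of 1 step (tolerance 1e-06), which gives back the read counts that the authors had scaled. The authors' deposited comparison also gives log2 fold changes, a score (the Wald statistic) and p-values, per the file headers. Deposited log10 group means were not used. Per the submitters' processing notes, bcl2fastq 1.8.4 was used and the genome build was sacCer3. Aligner, counter and strand setting: not given in the sources used here, so overlapping genes and paralogs may share reads. Libraries were directional, per the labels' protocols.

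limma 3.58.1 (R 4.3.3) with a trend was fitted to log2(value + 1) for the 2 groups, keeping the 6503 genes that averaged 1 or more, tested on simulated data, with two-sided Benjamini-Hochberg adjusted p. The planned test for counts was not the main one because the values are normalized. Calls were compared with edgeR 4.0.16 and DESeq2 1.42.0 on recovered reads (fewest 62 in any library for a member other than LYS2). Other alternatives were other scalings, filters, pseudocount and variance model, a replicate block, each library left out, a minimum fold change, and, added afterwards, no chromosome XI genes. Members and lists were chosen with earlier results of these data known. Any member could be named, with up to 4 called genes of smallest p per related list, and any gene of Gcn4 control or of the marker list. LYS14, SNZ2, SNZ3, SNO2, SWD2 and YOR302W fall outside that rule and were chosen after their values were seen. One related gene is not reported here. 12 of 13 listed genes of Gcn4 control matched the table by name. Coordinates, coding lengths and sequences are from RefSeq R64, in which 43 of 43 members matched a locus tag. Coding sequences of paralogs were aligned globally with Biopython 1.88.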

Additional observations from a re-analysis of the deposited data

How the results depend on the processing

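With the replicate number as a block, 13 members rose and 11 fell, as against 11 and 11, with ARG5,6 and HOM3 as the added rises. Over all genes 1619 rose and 1566 fell. The numbers are not a pairing by the labels: with 2 pairs, the differences between replicates 1 and 2 correlated at 0.166 between the groups over 5860 genes. Counts of all genes moved without a filter (950 rose, 847 fell), with a minimum log2 fold change of 1 (182 rose, 52 fell) and, for falls, with limma without a trend (882). Leaving out each library gave 972 to 1596 rises and 780 (without WT replicate 2) to 1440 falls. Among the members these fits gave 8 to 15 rises and 8 to 13 falls. A minimum log2 fold change of 1 left 2 members that rose and 0 that fell by limma-trend, and limma without a trend called 6 falls. The minimum is a stricter threshold by construction, and the cause of the other shifts was not tested. 5 members that did not pass changed sign. ARG1 was at -0.053 with total-count scaling and -0.028 to 0.038 with a library left out, and THR1 was at -0.064 with quantile normalization, -0.015 with total-count scaling and -0.10 to 0.18 with a library left out. SER3 was at 0.0084 with size factors without chromosome XI genes and -0.076 to 0.046 with a library left out. With a library left out ARO3 ranged over -0.088 to 0.035 and THR4 over -0.020 to 0.21. Members rose and fell in numbers of 12 and 11 by edgeR (1492 and 1387 genes) and 10 and 10 by DESeq2 (1094 and 955 genes). DESeq2 on recovered reads gave the same counts as the authors' deposited comparison, which it repeats. The numbers were 10 and 11 without chromosome XI genes, which was chosen after seeing the data. A left-out library leaves 1 in its group, assumed to vary like the other group. Medians of all genes moved by -0.0579 (log2, total counts) to 0.0232 with another scaling. Depth limits LYS2, with 18 reads in all.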

Other observations

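Genes that make and pass on glutamate, the nitrogen donor of most of these pathways, were read in the same libraries. Of 12 genes for glutamate, glutamine, aspartate, asparagine, alanine and proline synthesis, 4 rose and 2 fell, against 22.3% and 21.4% of all genes. GDH1, the main glutamate dehydrogenase of growth on glucose, fell to 1367 ± 50.2 normalized counts in 9Myc-Swd2, against 3010.4 ± 47.7 in WT (SD, n = 2 each, log2 fold change -1.14 ± 0.067, limma-trend adjusted p = 5.13e-10). GLN1, the glutamine synthetase, fell by 0.45 on the log2 scale. GLT1, the glutamate synthase that uses glutamine, rose to 3159.9 ± 6.50, against 2534 ± 124 in WT (log2 fold change 0.32 ± 0.068). AAT1, the mitochondrial aspartate aminotransferase on chromosome XI, rose by 1.00 on the log2 scale, and the part of that chromosome in its rise was not tested.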
